A study of Mus musculus with 11 samples.

Results

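The 10 genes described here, S100a8, S100a9, Retnlg, Csf3r, Cxcr2, Mmp8, Il1b, Ngp, Camp and Clec4d, are genes that neutrophils are known for. They were chosen by name, with earlier results of these data known, and all 10 were found among the 31053 genes of the deposited matrices. Each matched 1 gene by its symbol. They were followed over 4 time points, and across the spots of each section, in mouse liver injured with paracetamol (acetaminophen, APAP), a drug that in overdose destroys the hepatocytes closest to the central vein.

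Spatial transcriptomes were collected from 11 snap-frozen liver sections with the Visium assay, which captures polyadenylated RNA on a grid of barcoded spots, so that a spot is a small region of tissue holding RNA from several cells. There were 3 sections labelled Uninjured at 0 h (2, 3 and 4) and 8 labelled POD, which the series places along an APAP time course: 24 h A and B, 36 h A and B, and 48 h A to D. Strain, sex and age are not given per section. Per the study's methods the mice were C57BL/6JCrl, young adult and male unless stated otherwise, and were fasted before an intraperitoneal injection of APAP. The methods give a single mouse per time point for this assay, so n counts sections throughout, the p-values measure only the spread between sections, and mouse and time point cannot be told apart. No slide or sequencing batch is given in the labels. All 11 sections carry the same 4992 spot barcodes, because a barcode marks a position on the array and not a cell.

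Between 1490 and 3466 spots per section were kept, with 31292663 to 67045372 UMIs (unique molecular identifiers, each standing for 1 captured transcript) per section and medians of 15168.5 to 29950 UMIs per spot. CPM below denotes UMIs per 1000000 of the section total after TMM scaling, which corrects for a shift in composition between libraries. As a check of the tissue label, the 6 hepatocyte markers summed to 84853 to 121832 CPM in each section. Changes were called at an adjusted p under 0.05 in edgeR's quasi-likelihood test and the Benjamini-Hochberg adjustment covered all 14821 tested genes. Log2 fold changes are given ± their standard error.

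Neutrophils are short-lived granulocytes made in bone marrow, where their granule proteins are produced in stages: genes of secondary granules such as Ngp and Camp are transcribed in marrow precursors and largely switched off before release, whereas receptors, S100 proteins and later granule genes are carried into tissue. The granulocyte colony-stimulating factor receptor Csf3r and the chemokine receptor Cxcr2 govern their release and recruitment, and Il1b is a cytokine that neutrophils share with monocytes and macrophages. In injured liver, neutrophils gather around dead hepatocytes within the first days. In a bulk sum over a section, more cells of a type and more RNA per cell cannot be told apart.

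On the mouse genome GRCm38 (mm10, the build of the files), S100a8 lies at chr3:90668978-90670035 on the forward strand and S100a9 at chr3:90692632-90695721 on the reverse strand, 22596 bp apart. Retnlg lies at chr16:48872621-48874496, Csf3r at chr4:126024550-126044440, Cxcr2 at chr1:74153989-74161246, Mmp8 at chr9:7558456-7568485 and Clec4d at chr6:123262111-123275265, all on the forward strand. Ngp, at chr9:110419747-110423012 on the forward strand, and Camp, at chr9:109847379-109849617 on the reverse strand, share a chromosome but are 570129 bp apart. Il1b lies at chr2:129364570-129371139 on the reverse strand and is the only member that another annotated gene overlaps, the antisense transcript Il1bos, whose level was 0 to 0.0638 CPM in the 11 sections. All 10 are protein-coding genes.

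The promoters of 4 members are shown because these genes carry the contrasts below: the neighbours S100a8 and S100a9, which moved together, Clec4d, which rose furthest over its 0 h level, and Il1b, which did not rise. C/EBP proteins are transcription factors of the myeloid lineage, and capitals mark the letters TTNNGNAA on either strand (TTNCNNAA when read in reverse), a loose form of a C/EBP motif. Sequences are from RefSeq on GRCm38.p6, 5′ to 3′ on the strand of the gene, and end just before the start of the transcript.
S100a8 (chr3:90668821-90668977, forward strand): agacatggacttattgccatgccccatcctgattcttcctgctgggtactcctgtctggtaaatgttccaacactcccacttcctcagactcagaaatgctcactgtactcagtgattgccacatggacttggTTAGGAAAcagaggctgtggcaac
S100a9 (chr3:90695722-90695971, reverse strand): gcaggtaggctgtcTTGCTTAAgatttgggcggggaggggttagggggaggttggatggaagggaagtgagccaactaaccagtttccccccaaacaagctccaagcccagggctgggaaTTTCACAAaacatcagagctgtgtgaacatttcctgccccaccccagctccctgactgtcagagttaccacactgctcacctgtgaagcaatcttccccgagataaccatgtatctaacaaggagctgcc
Clec4d (chr6:123261857-123262106, forward strand): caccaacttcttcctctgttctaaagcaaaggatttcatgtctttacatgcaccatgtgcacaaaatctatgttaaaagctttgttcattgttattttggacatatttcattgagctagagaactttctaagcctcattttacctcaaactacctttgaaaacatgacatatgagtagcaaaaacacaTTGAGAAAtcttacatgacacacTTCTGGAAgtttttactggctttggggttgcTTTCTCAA
Il1b (chr2:129371140-129371389, reverse strand): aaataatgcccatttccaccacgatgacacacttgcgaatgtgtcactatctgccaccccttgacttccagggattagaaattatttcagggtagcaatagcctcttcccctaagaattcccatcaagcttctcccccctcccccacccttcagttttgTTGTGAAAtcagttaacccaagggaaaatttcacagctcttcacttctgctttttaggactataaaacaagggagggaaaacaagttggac
Within the 250 bases before the RefSeq start the letters were found in 7 of the 10 members and in 36.8% of 32851 mouse promoters of the same length. Clec4d held 3 matches, S100a9 held 2, and S100a8 and Il1b each held 1. Il1b holds the letters as S100a8 does although their levels moved apart, and a match is a description of the window and not a bound site.

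After APAP, 7 of the 8 members that could be tested rose at 24 h, at 36 h and at 48 h, and Il1b was the exception at every time. Ngp and Camp had too few UMIs to pass the filter on low counts and were not among the 8. In the same comparisons 23.1% of all tested genes were called higher at 24 h, 16.8% at 36 h and 23.3% at 48 h. The median log2 fold change of the 8 tested members was 4.11 at 24 h, 3.19 at 36 h and 3.67 at 48 h, beside 0.05, 0.05 and 0.01 over all genes. The 7 genes also lay higher in each of the 8 injured sections than in any 0 h section, which held for 15.7% of all tested genes. The 3 comparisons share the 0 h sections and are therefore not independent of each other.

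**Figure D1:**
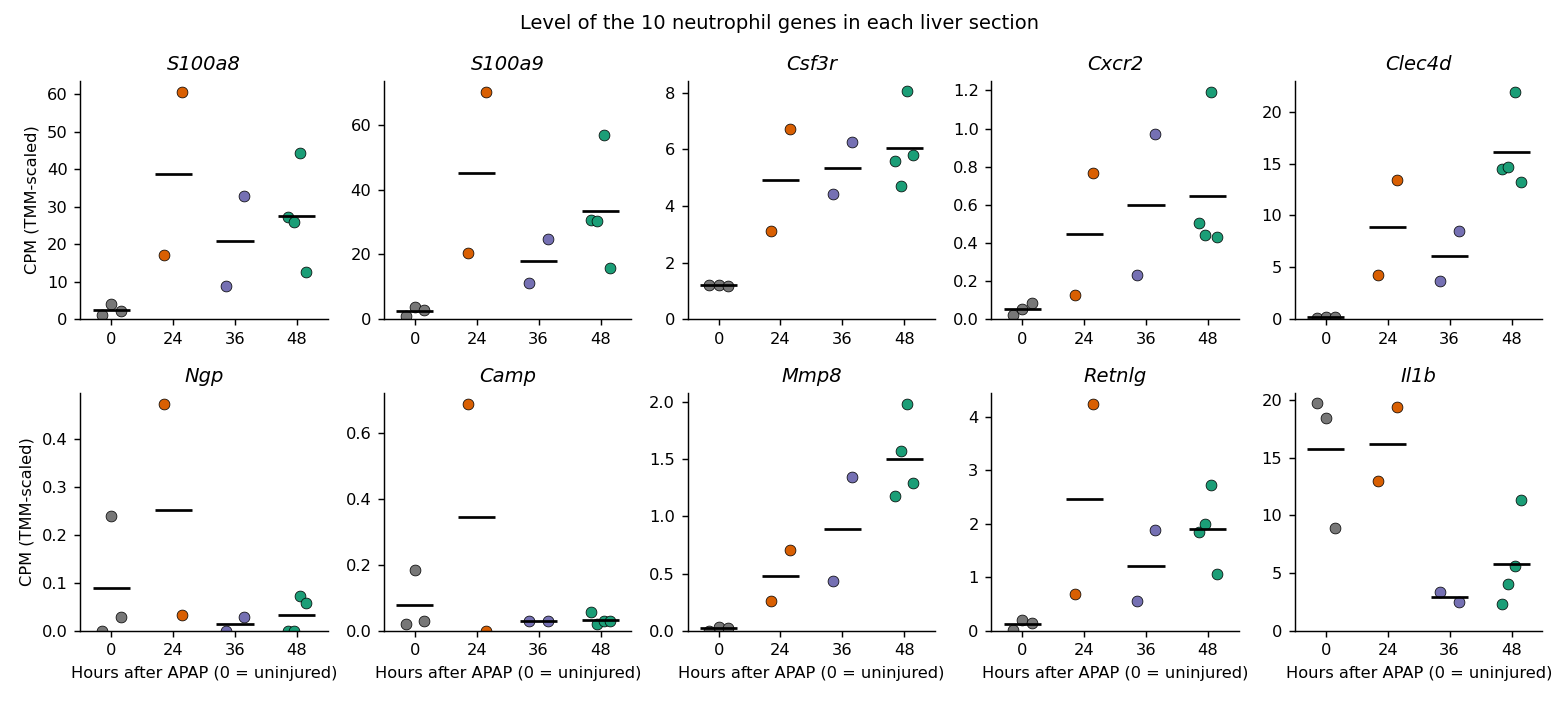
Level of each of the 10 genes (CPM, linear axes that start at 0) by time after APAP in hours, with 1 point per section and a bar at the group mean. For S100a8, S100a9, Retnlg, Csf3r, Cxcr2, Mmp8 and Clec4d every injured section lies above the 3 sections at 0 h, whereas the groups overlap for Il1b, Ngp and Camp.

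S100a8 and S100a9 encode the subunits of calprotectin, the most abundant cytosolic protein complex of neutrophils and an alarmin when released. The level of S100a8 was 1.06, 3.96 and 2.09 CPM in 0 h 2, 3 and 4, 17.1 and 60.5 CPM in 24 h A and B, 8.92 and 32.7 CPM in 36 h A and B, and 27.3, 25.8, 44.4 and 12.5 CPM in 48 h A to D. The highest value was thus in 24 h B, the lowest injured value in 36 h A was still above each 0 h section, and sections of the same time point differed widely. The log2 fold change of S100a8 against 0 h was 4.01 ± 0.79 (adjusted p = 0.00304, edgeR) at 24 h, 3.12 ± 0.78 (adjusted p = 0.0160) at 36 h and 3.52 ± 0.72 (adjusted p = 0.00357) at 48 h. The call at 36 h rested on 1 section: without 36 h B it was 1.89 (adjusted p = 0.203), and without 0 h 2 it was 2.74 (adjusted p = 0.0512).

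S100a9 was at 0.88, 3.64 and 2.74 CPM in the 0 h sections, at 20.4 and 70.2 CPM at 24 h, at 11.2 and 24.7 CPM at 36 h, and in 48 h A to D at 30.5, 30.3, 56.8 and 15.7 CPM. Its log2 fold change was 4.21 ± 0.73 (adjusted p = 0.00164, edgeR) at 24 h, 2.88 ± 0.72 (adjusted p = 0.0163) at 36 h, lost without 36 h B (2.20, adjusted p = 0.146), and 3.77 ± 0.68 (adjusted p = 0.00173) at 48 h. At every time point the sections ranked in the same order for both subunits. The number of S100a9 UMIs per S100a8 UMI ranged from 0.756 to 1.31 over the 11 sections, with 36 h B lowest and 0 h 4 highest, so that the pair kept close to 1 ratio while each gene's level moved over more than an order of magnitude.

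Clec4d, a C-type lectin receptor of neutrophils and monocytes that signals through the Fc receptor gamma chain, showed the highest fold of the members with more than 3 UMIs at 0 h. It was at 0.088, 0.221 and 0.169 CPM at 0 h (22 UMIs in all), at 4.28 and 13.4 CPM at 24 h, at 3.71 and 8.50 CPM at 36 h, and in 48 h A to D at 14.5, 14.6, 21.9 and 13.3 CPM. Every injured section lay well above the 0 h sections. Clec4d rose by a log2 fold change of 5.73 ± 0.63 (adjusted p = 0.000127, edgeR) at 24 h, 5.21 ± 0.64 (adjusted p = 0.000722) at 36 h and 6.61 ± 0.60 (adjusted p = 4.41e-05) at 48 h, and these 3 calls were kept without any 1 section.

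Csf3r, the receptor through which granulocyte colony-stimulating factor drives neutrophil production and survival, had the smallest standard errors of the tested members. Its level was 1.19, 1.20 and 1.19 CPM at 0 h, 3.10 and 6.70 CPM at 24 h, 4.43 and 6.25 CPM at 36 h, and 5.57, 4.69, 8.06 and 5.81 CPM at 48 h. Csf3r rose by a log2 fold change of 2.03 ± 0.33 (adjusted p = 0.000811, edgeR), 2.16 ± 0.33 (adjusted p = 0.00148) and 2.34 ± 0.29 (adjusted p = 0.000163) at the 3 times, and each call was kept without any 1 section.

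Cxcr2, the receptor for the CXC chemokines that draw neutrophils out of blood, was detected with few UMIs. The 0 h sections held 1, 3 and 3 UMIs, the 24 h sections 6 and 24, the 36 h sections 8 and 34, and the 48 h sections 35, 22, 83 and 30. Levels were 0.022 to 0.085 CPM at 0 h and 0.129 to 1.19 CPM after injury, the lowest in 24 h A. Cxcr2 rose by a log2 fold change of 2.96 ± 1.02 (adjusted p = 0.0377, edgeR) at 24 h, 3.47 ± 0.98 (adjusted p = 0.0238) at 36 h and 3.57 ± 0.86 (adjusted p = 0.00703) at 48 h. The 24 h call did not hold without 24 h B (1.27, adjusted p = 0.470) or without any of the 0 h sections (adjusted p from 0.0606 to 0.113), and that at 36 h without 36 h B (2.10, adjusted p = 0.271), 0 h 2 (adjusted p = 0.0798) or 0 h 3 (adjusted p = 0.0704).

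Retnlg encodes a resistin-like protein secreted by neutrophils. It was at 0.022, 0.202 and 0.141 CPM at 0 h, at 0.688 and 4.24 CPM at 24 h, at 0.550 and 1.88 CPM at 36 h, and in 48 h A to D at 1.85, 1.99, 2.73 and 1.07 CPM, following the order of S100a8 within the 24 h and 36 h pairs. Retnlg rose by a log2 fold change of 4.25 ± 0.90 (adjusted p = 0.00415, edgeR) at 24 h, 3.27 ± 0.94 (adjusted p = 0.0265) at 36 h and 3.91 ± 0.83 (adjusted p = 0.00387) at 48 h. The 24 h call was lost without 24 h B (2.44, adjusted p = 0.0628) and the 36 h call without 36 h B (2.12, adjusted p = 0.259), 0 h 2 (adjusted p = 0.0803) or 0 h 4 (adjusted p = 0.0632).

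Mmp8 encodes the neutrophil collagenase, a protease stored in granules. The 3 sections at 0 h held 0, 2 and 1 UMIs of Mmp8, against 12 and 22 at 24 h, 15 and 47 at 36 h, and 81, 78, 138 and 89 at 48 h. Against those 3 UMIs the pooled ratio, on TMM-scaled section totals, was 19.7 (95% counting interval 6.19 to 100.2) at 24 h. It was 40.2 (13.1 to 200.0) at 36 h and 67.5 (22.9 to 328.8) at 48 h, where the interval covers counting error only. The gene was called higher at each time (adjusted p = 0.00287, 0.00161 and 0.000130, edgeR's quasi-likelihood test). It was also the 1 member called higher at 48 h than at 24 h, where 16.2% of all tested genes were called higher, with a log2 fold change of 1.69 ± 0.54 (adjusted p = 0.0331). That call was lost without 24 h A (1.09, adjusted p = 0.255), 48 h B (adjusted p = 0.0583) or 48 h C (adjusted p = 0.0694).

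Ngp and Camp, the cathelicidin-family genes of marrow precursors, did not follow the others. The 0 h sections held 0, 13 and 1 UMIs of Ngp, the 24 h sections 22 and 1, the 36 h sections 0 and 1, and the 48 h sections 0, 0, 5 and 4. Camp was counted at 1, 10 and 1 UMIs at 0 h, 32 and 0 at 24 h, 1 and 1 at 36 h, and 4, 1, 2 and 2 at 48 h. Both genes thus stood out in the same pair of sections, 24 h A and 0 h 3, and 24 h B, which was highest for S100a8 and S100a9, held 1 UMI of the 2 genes together. With no filter on low counts neither gene was called against 0 h at any time (adjusted p from 0.169 to 0.583, edgeR), and Camp was lower at 48 h than at 24 h (-3.26 ± 1.0, adjusted p = 0.0341), a difference set by the 32 UMIs of 24 h A.

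The share of the UMIs of all 10 members that came from Ngp and Camp was 0.0956, 1.5 and 0.366% in the 0 h sections, 1.93 and 0.0181% at 24 h, 0.0881 and 0.0723% at 36 h, and 0.0691, 0.0241, 0.0703 and 0.141% at 48 h. Injured and 0 h sections overlapped, and the mean difference of -0.353 percentage points was within the spread (two-sided exact permutation test of 8 against 3 sections, p = 0.570). This result depended on 24 h A: without it the difference was -0.585 points (exact permutation p = 0.0333). Il1b gave 57.9 to 85.8% of member UMIs at 0 h. As a share of the UMIs of S100a8, S100a9, Ngp and Camp only, the means were 0.476% after injury and 2.52% at 0 h. That difference was -2.04 points (exact permutation p = 0.121). In 24 h A, 37 of the 54 UMIs of Ngp and Camp lay within 19 neighbouring spots that held 0.815% of the section's UMIs, and the same spots held 54 UMIs of S100a8 and 51 of S100a9. In 0 h 3, 11 of 23 lay within 19 neighbouring spots, and 1 of those spots held 28 UMIs of S100a8, 44 of S100a9 and 7 of Ngp. These patches were chosen for their Ngp and Camp UMIs after the values were seen and are given without a test.

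Il1b went another way. Its level was 19.7, 18.5 and 8.92 CPM in 0 h 2, 3 and 4, 13 and 19.4 CPM at 24 h, 3.36 and 2.51 CPM at 36 h, and 2.33, 4.05, 5.61 and 11.3 CPM at 48 h. The 24 h sections lay inside the range of the 0 h sections, both 36 h sections lay below it, and at 48 h only 48 h D reached it. The log2 fold change against 0 h was 0.04 ± 0.56 (adjusted p = 0.966, edgeR) at 24 h, -2.42 ± 0.64 (adjusted p = 0.0199) at 36 h and -1.43 ± 0.47 (adjusted p = 0.0311) at 48 h, in comparisons where 12.4% and 20.9% of all tested genes were called lower at 36 h and 48 h. The fall at 48 h depended on the scaling: with total counts in place of TMM, which put the median log2 fold change of all genes at 0.54 in that comparison, it was -0.91 (adjusted p = 0.114), and it was also lost without 0 h 2 (adjusted p = 0.102), 0 h 3, either 36 h section, 48 h B or 48 h C (adjusted p from 0.0501 to 0.0923). The fall at 36 h was lost without 36 h A (-2.65, adjusted p = 0.0720), 36 h B (-2.23, adjusted p = 0.147) or 0 h 2 (-2.24, adjusted p = 0.0513).

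**Figure D2:**
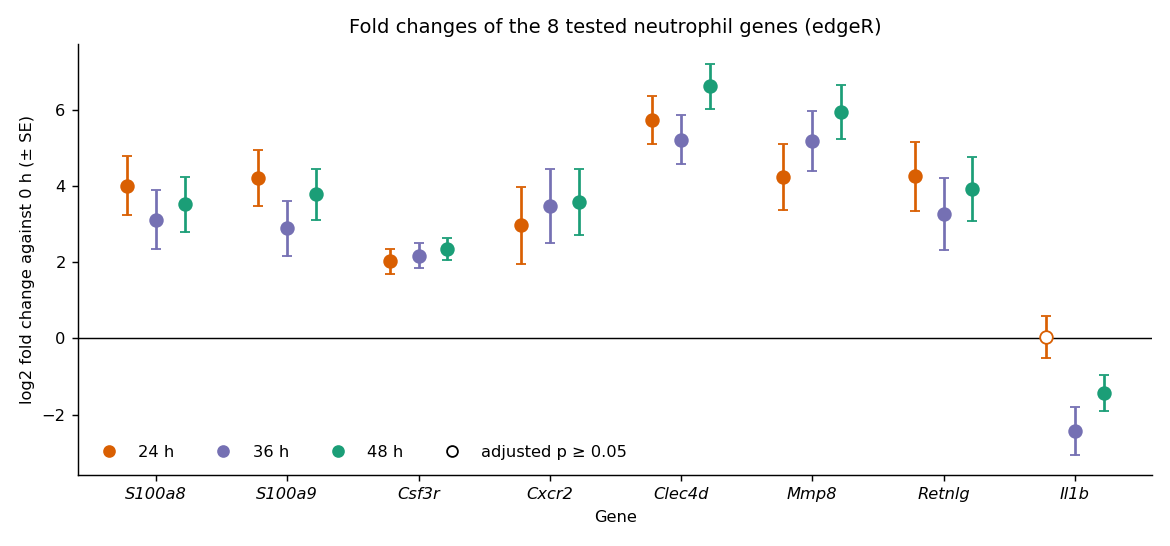
Log2 fold change against 0 h of the 8 members tested by edgeR, at 24, 36 and 48 h, with bars of 1 standard error. Clec4d lies highest at each time, Mmp8 rests on 3 UMIs at 0 h, and Il1b, at 0.04, -2.42 and -1.43, is the only member without a rise.

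Among the injured times few differences were larger than the spread between sections. From 24 h to 36 h only Il1b was called, lower by a log2 fold change of -2.46 ± 0.67 (adjusted p = 0.0372, edgeR), beside 8.58% of all tested genes called lower. That call was lost without 24 h A, 24 h B, 36 h A, 36 h B, 48 h C, 0 h 2 or 0 h 3 (adjusted p from 0.0522 to 0.191). From 36 h to 48 h no member was called by edgeR and 3.05% of all tested genes were. The only member there with an unadjusted p under 0.05 was Clec4d, at 1.40 ± 0.46 (adjusted p = 0.127), and DESeq2 called it (1.42, adjusted p = 0.0227). S100a8 differed by -0.49 ± 0.67 (adjusted p = 0.599) between 24 h and 48 h and S100a9 by -0.44 ± 0.62 (adjusted p = 0.615), differences smaller than the spread between sections.

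The ratios of member UMIs within a section do not depend on scaling and ordered the times more evenly than the levels did. Clec4d UMIs per S100a8 UMI were 0.083, 0.056 and 0.081 at 0 h, 0.250 and 0.222 at 24 h, 0.416 and 0.260 at 36 h, and 0.532, 0.566, 0.492 and 1.06 at 48 h. No value of one time point overlapped those of the next, although 24 h A and 36 h B differed by little. Il1b UMIs per S100a8 UMI ran in the opposite direction, at 18.7, 4.67 and 4.27 at 0 h, 0.757 and 0.321 at 24 h, 0.377 and 0.0767 at 36 h, and at 48 h 0.0855, 0.157, 0.126 and 0.905. The groups at 24, 36 and 48 h overlapped in that ratio, with 48 h D above all other injured sections. These ratios were chosen after the levels were known and are given without a test.

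**Figure D3:**
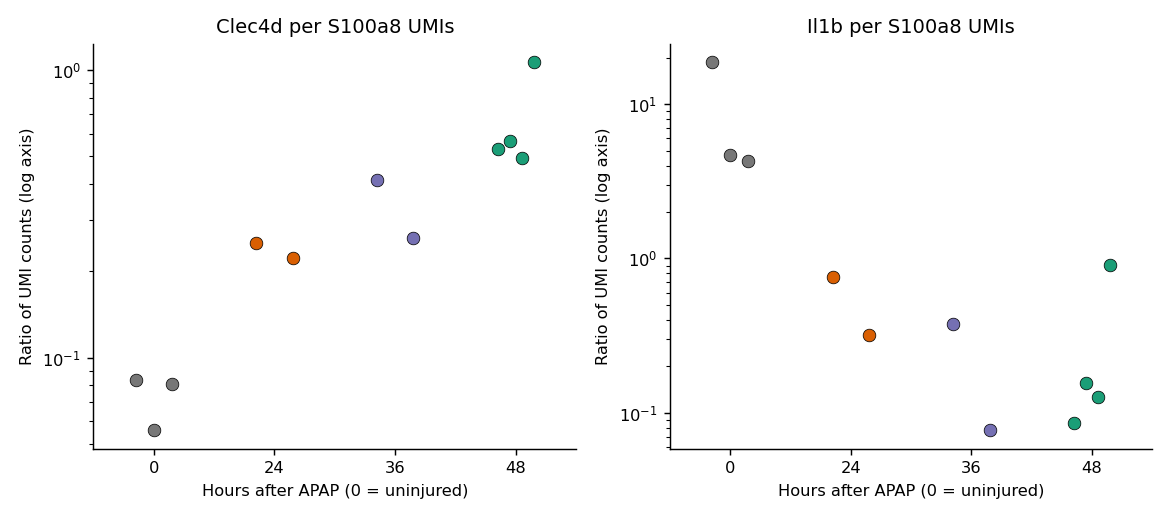
UMIs of Clec4d (left) and Il1b (right) per UMI of S100a8, with 1 point per section (log axes) by time after APAP in hours. Clec4d per S100a8 lies between 0.056 and 0.083 at 0 h and between 0.492 and 1.06 at 48 h, and Il1b per S100a8 is at most 0.905 after injury and at least 4.27 at 0 h.

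More spots held S100a8 or S100a9 in injured than in 0 h sections. After each spot was thinned to 5000 UMIs, the share of spots with at least 1 UMI of either gene was 0.829, 2.86 and 1.64% in the 0 h sections, 13.2 and 32.9% at 24 h, 8.59 and 22.2% at 36 h, and at 48 h 22, 19.9, 36.0 and 13.6%. The mean was 21.0% ± 9.56 (SD, n = 8) in injured and 1.78% ± 1.02 (SD, n = 3) in 0 h sections. The difference of 19.3 percentage points had p = 0.0121 in a two-sided exact permutation test, the smallest p that 8 against 3 sections allow. Unthinned shares were 3.20 to 8.25% at 0 h and 19.5 to 73.9% after injury. Thinning kept 1489 to 3343 spots per section.

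Spots outside the tissue carried the same transcripts. Without thinning, 0.329 to 3.58% of off-tissue spots at 0 h held S100a8 or S100a9, against 9.96 and 20.3% at 24 h, 6.22 and 9.47% at 36 h, and 38.3, 18.6, 26.8 and 18.5% at 48 h A to D. The median off-tissue spot held 952 to 10293 UMIs. In 0 h 3, 48 h A and 48 h D the off-tissue share exceeded the thinned share on tissue, at median off-tissue depths of 5253.5, 10293 and 4517 UMIs. Off-tissue spots were not thinned, so that this does not show a higher level off tissue. In the other sections the median off-tissue spot was shallower than the thinned spots, so that a lower share does not show a lower level.

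Levels per UMI, which do not depend on that depth, were also close off tissue and on tissue. On 1 scale, UMIs per 1000000 of each set of spots without TMM scaling, S100a8 was at 27.1 CPM off tissue and 17.3 CPM on tissue in 24 h A, at 67.5 and 59.4 CPM in 24 h B, at 17.0 and 9.84 CPM in 36 h A and at 26.8 and 34.4 CPM in 36 h B. In 48 h A to D it was at 26.5, 33.4, 47.9 and 15.4 CPM off tissue and at 31.1, 29.4, 51.8 and 14.2 CPM on tissue. The off-tissue level was thus the higher one in 5 of 8 injured sections for S100a8, in 3 for S100a9 and in 1 for Clec4d, and in 0 of 8 for Csf3r and Il1b. It was 0.462 to 0.997 of the level on tissue for Csf3r and 0.392 to 0.789 for Il1b in the injured sections. How much of the signal on tissue was free RNA was not tested.

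Spots rich in the pair were few. Those with at least 10 UMIs of S100a8 and S100a9 numbered 16 in 24 h A (0.635% of spots, 15.4% of the pair's UMIs) and 103 in 24 h B (6.25% of spots, 43.4% of the UMIs). There were 0 to 2 such spots in the 0 h sections, 4 and 13 at 36 h, and at 48 h 48, 53, 156 and 18 in A to D. The highest single spot held 72 UMIs of the pair and lay in 0 h 3, within the patch described above.

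Member UMIs lay side by side in injured tissue. Moran's I, which is 0 when neighbouring spots are unrelated and positive when like values adjoin, was computed over adjacent spots on the log of 1 plus the members' UMIs after thinning. It was -0.00053, 0.0247 and 0.0199 at 0 h, 0.102 and 0.276 at 24 h, 0.0792 and 0.147 at 36 h, and 0.134, 0.105, 0.159 and 0.0765 at 48 h. All injured sections exceeded all 0 h sections, by 0.120 on average (two-sided exact permutation test, p = 0.0121, the smallest possible). Thinned to 2000 UMIs, the difference was 0.0619 (exact permutation p = 0.0242), with an injured mean of 0.0791 in place of 0.135. Moran's I thus depended on how many UMIs were counted, and member levels were higher after injury. Il1b gave 57.9 to 85.8% of member UMIs at 0 h and 2.78 to 21.6% after injury. Closer packing and higher counts cannot be told apart here. For S100a8 and S100a9 alone the difference was 0.0881 (exact permutation p = 0.0121). Their values were -0.0087, 0.0537 and 0.0492 at 0 h and 0.0703 to 0.276 after injury. For Il1b alone the difference was 0.0079 (exact permutation p = 0.606), with values of -0.0217 to 0.0425 after injury and 0.0023 to 0.0084 at 0 h.

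**Figure D4:**
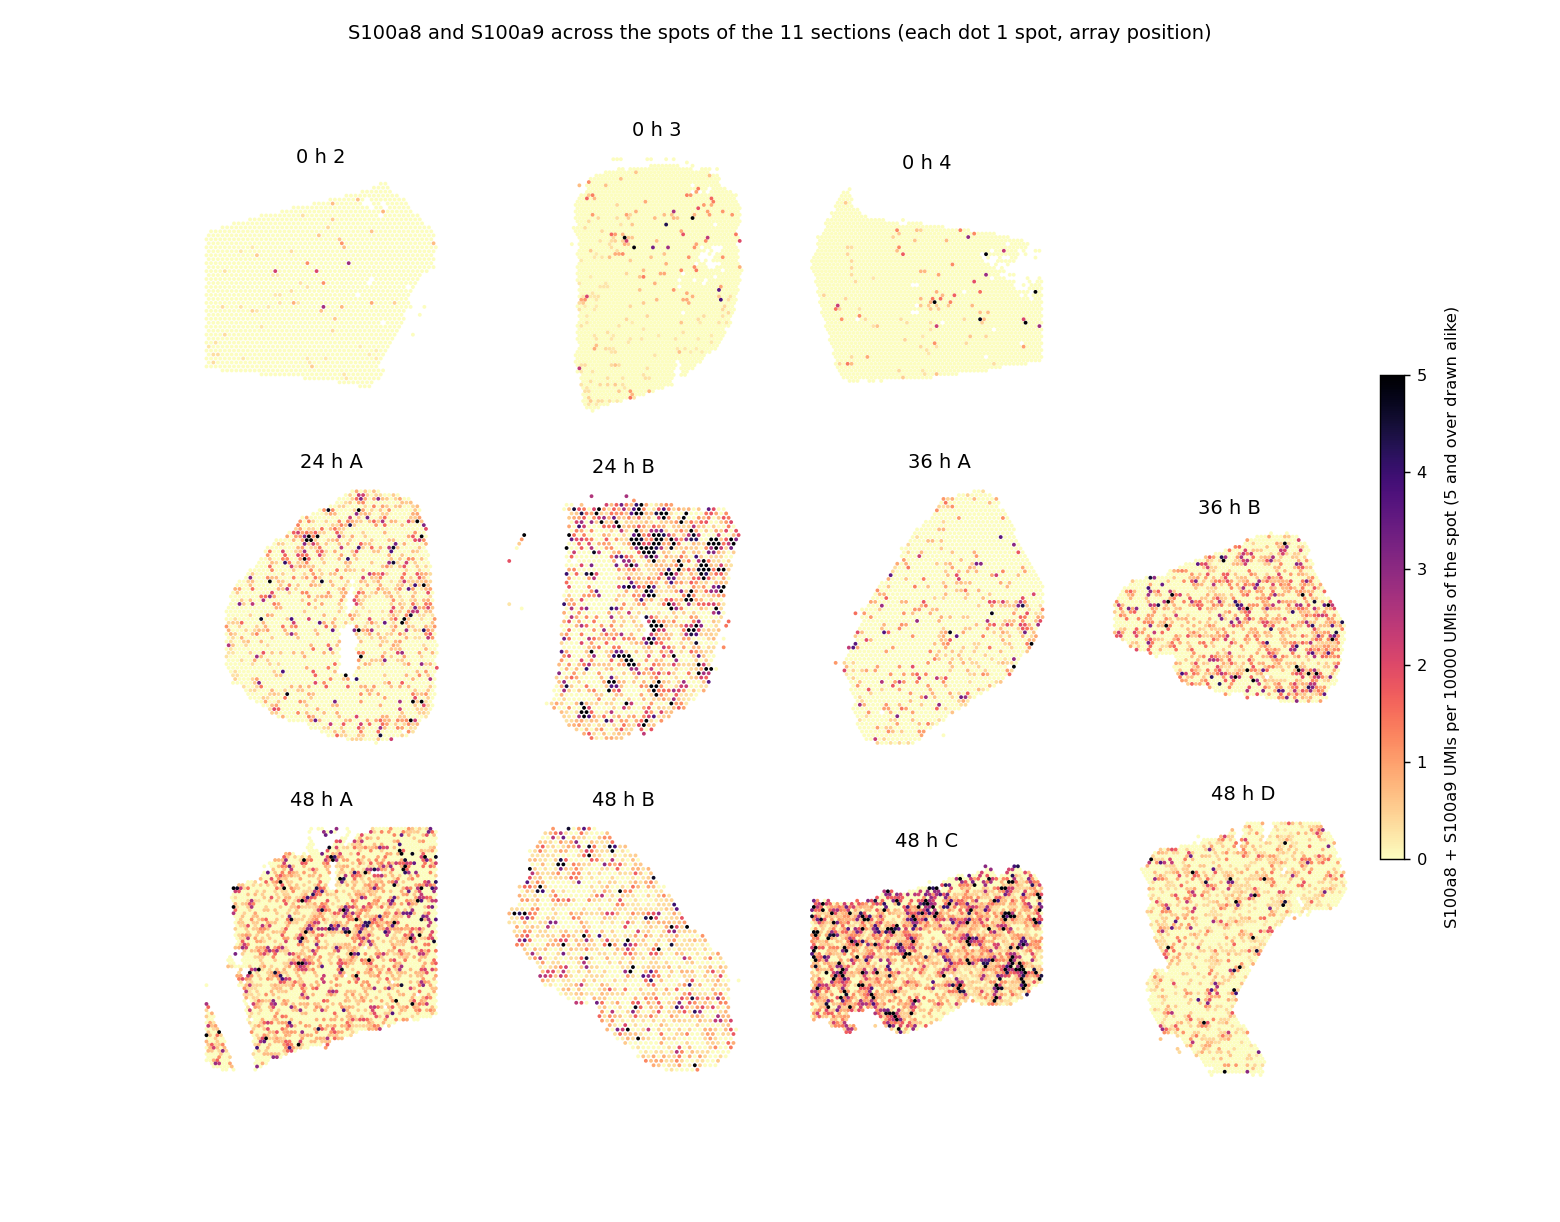
UMIs of S100a8 plus S100a9 per 10000 UMIs of each spot, drawn at the spot's position on the array, with 1 panel per section and the darkest colour for 5 and over. The 0 h sections show scattered single spots, whereas dark spots adjoin each other in 24 h B and 48 h C.

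To locate the genes relative to spots poor in hepatocyte transcripts, the 10% of each section's spots with the lowest score over 6 hepatocyte genes (hepatocyte-poor spots) were compared with its other spots, with the section as a block. Levels in such groups of spots are UMIs per 1000000 of the group's own total, without TMM scaling. Cxcr2, Ngp and Camp had too few UMIs for this fit. At 24, 36 and 48 h all 7 remaining members were higher in the hepatocyte-poor spots, beside 13.2, 16.7 and 35.5% of all tested genes called higher there and 16.7, 17.3 and 31.1% called lower. All 7 were also higher in the hepatocyte-poor spots than off tissue in 8 of 8 injured sections. At 0 h only S100a9 was (0.97 ± 0.26, adjusted p = 0.0288, edgeR), beside 1.28% of all tested genes, and that call was lost without 0 h 3 (adjusted p = 0.0617) or 0 h 4 (adjusted p = 0.694). Spots of a section share its library, so these p-values rest on 2, 2 and 4 sections after injury and on many UMIs within each.

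S100a8 illustrates the contrast. In the hepatocyte-poor spots and in the other spots its levels were 37.6 and 15.2 CPM in 24 h A, 167 and 47.0 CPM in 24 h B, 30.4 and 7.35 CPM in 36 h A, and 90.8 and 27.8 CPM in 36 h B. At 48 h they were 104 and 21.3 CPM in A, 100 and 22 CPM in B, 155 and 40.8 CPM in C, and 45.8 and 10.8 CPM in D. The hepatocyte-poor spots were higher in 8 of 8 injured sections, and the log2 fold change was 1.32 ± 0.15, 1.49 ± 0.18 and 1.69 ± 0.10 at the 3 times (adjusted p = 4.57e-06, 4.49e-06 and 9.96e-11, edgeR). Counted per spot and not per UMI, the hepatocyte-poor spots held 2.39 to 5.91 times as many S100a8 UMIs as the other spots in the injured sections.

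Clec4d differed most steeply among the members with ample counts, by 1.46 ± 0.17, 1.92 ± 0.19 and 2.15 ± 0.08 on the log2 scale at 24, 36 and 48 h (adjusted p = 2.07e-07, 6.13e-09 and 6.32e-19, edgeR). At 48 h its levels were 61.7, 71.1, 97.3 and 62.2 CPM in the hepatocyte-poor spots of A to D and 10.5, 11, 17.9 and 10.0 CPM in the other spots. At 0 h the hepatocyte-poor spots held 0 of the 22 Clec4d UMIs. S100a9 differed by 1.22, 1.42 and 1.67, Csf3r by 1.08, 0.96 and 1.55, Retnlg by 1.24, 1.49 and 1.40, and Mmp8 by 2.33, 1.56 and 2.15 at 24, 36 and 48 h, with adjusted p from 4.49e-18 to 0.00629.

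The contrast of Il1b changed with time. At 0 h it was lower in the hepatocyte-poor spots than in the other spots in 3 of 3 sections, at 11.5 against 16.0, 10.7 against 15.4 and 6.69 against 7.02 CPM. After injury it was higher there in 8 of 8 sections: 24.5 against 11.9 and 45.8 against 16.0 CPM at 24 h, 6.80 against 3.33 and 7.43 against 2.08 CPM at 36 h, and 5.0 against 2.35, 9.39 against 4.11, 15.4 against 5.61 and 13.9 against 12.8 CPM at 48 h. The log2 fold change was -0.51 ± 0.21 (adjusted p = 0.314, edgeR) at 0 h, 0.99 ± 0.20 (adjusted p = 0.00144) at 24 h, 1.07 ± 0.40 (adjusted p = 0.0470) at 36 h and 0.45 ± 0.18 (adjusted p = 0.0432) at 48 h. The change between times was itself past the threshold, at 1.5 ± 0.29 (adjusted p = 0.00191) between 24 h and 0 h, 1.58 ± 0.46 (adjusted p = 0.0199) between 36 h and 0 h, and 0.95 ± 0.28 (adjusted p = 0.0114) between 48 h and 0 h. The calls at 36 h and 48 h each missed the threshold when 1 of several sections was left out, most of all without 48 h C (0.20, adjusted p = 0.353, at 48 h).

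**Figure D5:**
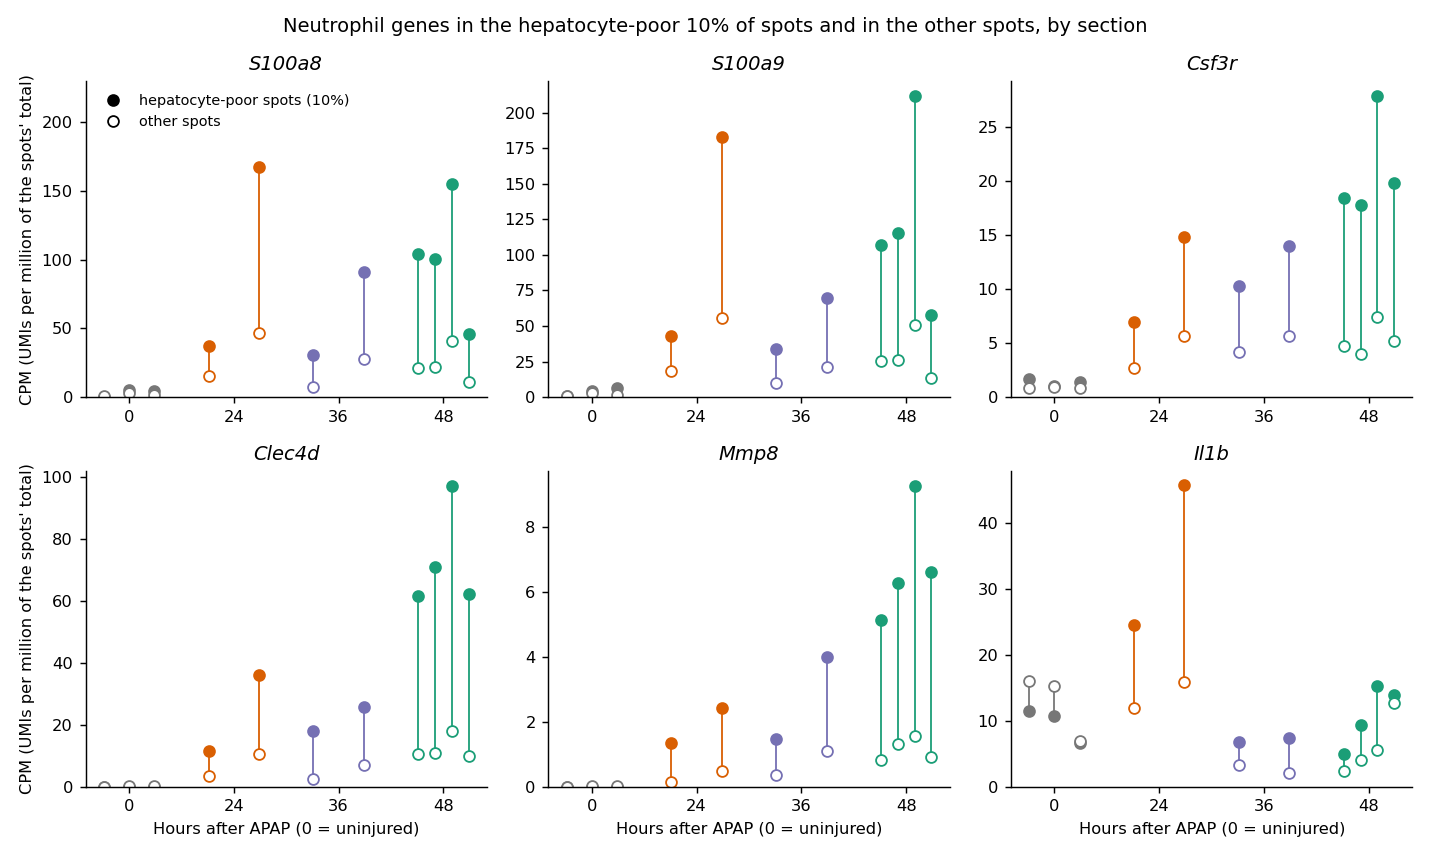
Level of 6 members (CPM of the spots' own total, linear axes) in the 10% of spots poorest in hepatocyte transcripts (filled) and in the other spots (open), joined for each section, by time after APAP in hours. S100a8, S100a9, Csf3r, Clec4d and Mmp8 lie higher in the hepatocyte-poor spots in all 8 injured sections, and so does Il1b, which lies lower there in the 3 sections at 0 h.

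Further neutrophil genes went both ways in this contrast. Of 14 tested, 5, 4 and 10 were higher in the hepatocyte-poor spots at 24, 36 and 48 h and 3, 3 and 4 were lower. Over all tested genes 13.2, 16.7 and 35.5% were called higher there and 16.7, 17.3 and 31.1% lower. At 0 h 1 of the 14 was lower, beside 1.99% of all tested genes. Chil3, a chitinase-like gene of neutrophils and macrophages, was higher there at the 3 times (1.43, 1.74 and 2.07 on the log2 scale). Lcn2, which encodes a siderophore-binding lipocalin that injured hepatocytes also make, was lower there (-1.27, -0.61 and -0.75), as was Wfdc21 (-1.03, -1.04 and -1.53). Prtn3, a protease of primary granules, was lower at 24 h and 48 h (-0.66 and -1.07).

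Markers of other cells differed between the same groups of spots. All 6 monocyte markers were higher there at 24, 36 and 48 h, with median log2 fold changes of 1.37, 1.49 and 1.82, beside 0.01 at 0 h. Of 9 Kupffer cell and macrophage markers 4, 8 and 9 were higher there at the 3 times, 1 was lower at 24 h and 3 were lower at 0 h. Over all tested genes 13.2, 16.7 and 35.5% were higher there at the 3 times, and 16.7% were lower at 24 h and 1.99% at 0 h. Their part in the members' result was not tested.

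A contrast by portal genes overlapped with the one by hepatocyte genes. All 6 hepatocyte markers were higher in the portal-richest spots at 24, 36 and 48 h (median log2 fold changes of 0.88, 0.68 and 1.04). All 12 portal genes were lower in the hepatocyte-poor spots at each of those times. Position along the lobule and lack of hepatocyte transcripts therefore cannot be told apart here. The 10% of spots highest in 12 portal genes (portal-richest spots) were compared with the 10% lowest in them, and these 12 genes were chosen by the study on these same sections. S100a8, S100a9, Csf3r and Clec4d, 4 of the 5 members tested, were lower in the portal-richest spots at 24, 36 and 48 h, beside 11.5, 14.2 and 33.4% of all tested genes called lower. At 0 h edgeR called 0 of the 5, with 1 of them at an unadjusted p under 0.05, beside 10.4% of all tested genes called in either direction. S100a8 differed by -2.33 ± 0.23, -2.14 ± 0.28 and -2.33 ± 0.14 on the log2 scale and Clec4d by -2.95 ± 0.36, -2.34 ± 0.35 and -3.18 ± 0.14 at the 3 times. S100a9 differed by -1.71, -1.66 and -2.24 and Csf3r by -1.94, -1.48 and -1.86, all with adjusted p at or below 0.00189 (edgeR). Of 8 further neutrophil genes 1, 1 and 3 were lower in the portal-richest spots at the 3 times and 2, 2 and 4 were higher, beside 13.4, 14.9 and 30.3% of all tested genes called higher. Il1b was not called at any time, at 0.82 ± 0.31 (adjusted p = 0.139) at 0 h, -0.82 ± 0.40 (adjusted p = 0.173) at 24 h, -0.82 ± 0.81 (adjusted p = 0.513) at 36 h and 0.27 ± 0.32 (adjusted p = 0.491) at 48 h.

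A stricter zone, set by spots below the 1st percentile of the hepatocyte score at 0 h, held at least 20 spots in only 1 injured section, 48 h C with 40. Spots touching such a spot could be compared with spots at least 3 grid steps away in 48 h A and 48 h C. Of the 8 members 6 were higher beside hepatocyte-low spots, where 10.8% of all tested genes were, and 13.8% were lower. Of 18 further neutrophil genes 1 was higher and 3 were lower there. The log2 fold change was 1.11 for S100a8, 0.76 for S100a9, 0.99 for Retnlg, 0.67 for Csf3r, 1.33 for Mmp8 and 0.66 for Clec4d (adjusted p from 5.42e-24 to 0.0249, edgeR). Cxcr2 was at 1.44 ± 0.59 (adjusted p = 0.0574) and Il1b at -0.54 ± 0.35 (adjusted p = 0.274).

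Across single spots of an injured section, S100a8 and S100a9 correlated with Pearson's r of 0.197 to 0.507 (median 0.239, 8 sections), as a description of sparse counts in spots that share a library. Outside the members, the 12 genes most like their summed UMIs over 17836 thinned spots, out of 11283 candidates, were Tmsb4x (mean r over 8 sections 0.38), Lyz2 (0.36), Ftl1 (0.35), Lgals3 (0.32), Ctsb (0.31), Tmsb10 (0.31), Psap (0.31), Tyrobp (0.30), Actb (0.30), Ccl6 (0.30), Actg1 (0.30) and Ctsd (0.29). These include lysozyme, lysosomal proteases and actin-binding thymosins, which many myeloid cells express. In the 2 sections at 24 h alone, the globin genes Hbb-bs (mean r 0.35), Hba-a1 (0.34) and Hba-a2 (0.32) held ranks 3, 4 and 6. Against 0 h, 6 of the 12 rose at 24 h, 6 rose and 1 fell at 36 h, and 11 rose and 1 fell at 48 h. Among them were Lgals3 (4.90 ± 0.34, adjusted p = 1.81e-05, edgeR) and Lyz2 (1.71 ± 0.25, adjusted p = 0.000407), which rose at 48 h. Over all tested genes 23.1, 16.8 and 23.3% rose and 18.6, 12.4 and 20.9% fell at 24, 36 and 48 h.

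Of 29 further neutrophil genes 20 passed the filter, and 13, 7 and 12 of them rose at 24, 36 and 48 h. Over all tested genes 23.1, 16.8 and 23.3% were called higher at these times. Lcn2, which neutrophils also store in granules, rose from a mean of 4.93 CPM to 1099 CPM at 24 h, 488 CPM at 36 h and 366 CPM at 48 h. Chil3 was at 0.0839, 18.2, 37.4 and 64.3 CPM at the 4 times. Prtn3 rose at 24 h (4.35 ± 0.91, adjusted p = 0.00419, edgeR) and 48 h (3.46, adjusted p = 0.00776) and was at 2.24 (adjusted p = 0.0876) at 36 h. Other primary granule genes of the list did not follow Prtn3 where compared. Outside the 19 spots of its Ngp and Camp patch, 24 h A held 2067 UMIs of Prtn3, 13 of Elane, 1 of Mpo and 0 of Ctsg. Outside its own patch 0 h 3 held 77, 13, 0 and 0. Ly6g, the surface marker that defines mouse neutrophils, was counted at 1, 2, 1 and 7 UMIs in all at the 4 times, too few for a test.

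Of 7 ligands that recruit or sustain neutrophils 5 were tested, and 4, 2 and 4 rose at the 3 times. Of all tested genes 23.1, 16.8 and 23.3% were called higher. Cxcl1, a ligand of Cxcr2, went from 1.28 CPM to 83.0, 17.5 and 29.5 CPM (log2 fold changes of 6.02, 3.77 and 4.52). Cxcl2, another Cxcr2 ligand, rose by 4.46, 3.57 and 2.96. Cxcl3 had 0 UMIs at 0 h and 33, 2 and 34 UMIs at the 3 times. Ppbp was not called at any time, and Csf3, the ligand of Csf3r, was counted at 0, 5, 1 and 3 UMIs.

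In the interleukin-1 system beside Il1b, 11 of 11 genes were tested. The numbers that rose were 3, 4 and 5, and 2 fell at each time, beside 23.1, 16.8 and 23.3% of all tested genes called higher and 18.6, 12.4 and 20.9% called lower. The receptor Il1r1 rose by 2.20, 1.58 and 1.84 on the log2 scale while its accessory chain Il1rap fell by 2.16, 1.04 and 1.05. Il18, a related cytokine, fell at 24 h and 48 h (-0.58 and -0.45), and the pore-forming protein Gsdmd was not called at any time.

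Of 7 tested genes for leukocyte adhesion 3, 5 and 6 rose, beside 23.1, 16.8 and 23.3% of all tested genes at the 3 times. Icam1, the endothelial ligand of neutrophil integrins, rose by 1.83, 0.68 and 1.02 and the integrin chain Itgb2 by 1.27, 1.67 and 1.99. Vcam1 rose at 36 h and 48 h (1.77 and 1.75) and was at 0.93 (adjusted p = 0.0795, edgeR) at 24 h, and Itgal was not called. Of 8 receptors and signalling partners of calprotectin and Clec4d 4, 2 and 6 rose, beside the same shares of all tested genes. Among them were the Toll-like receptor gene Tlr2 at 24 h and 48 h (1.5 and 0.91) and Fcer1g, the signalling chain of Clec4d, at 48 h (1.53).

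Markers of other cells that express some of these genes are given for comparison. The 6 monocyte markers summed to 21.7 to 30.2 CPM at 0 h, 36.5 to 38.7 CPM at 24 h, 34.4 to 74.4 CPM at 36 h and 64.6 to 92.0 CPM at 48 h, and 4, 4 and 6 of them rose. Ccr2, the monocyte chemokine receptor, rose by 2.13, 3.12 and 3.65 on the log2 scale and F13a1 by 5.52, 5.93 and 6.58. Of 9 Kupffer cell and macrophage markers 2, 2 and 3 rose at the 3 times, 3 fell at 24 h and 1 fell at 36 h, where 23.1, 16.8 and 23.3% of all tested genes rose and 18.6, 12.4 and 20.9% fell at the 3 times, with summed levels of 585 to 657 CPM at 0 h and 574 to 1213 CPM after injury. Eosinophil and basophil markers summed to at most 0.462 CPM in any section, and Epx was at 0 in all of them. Platelet markers summed to 8.41 to 10.8 CPM at 0 h and 22.5 to 154.8 CPM after injury, lymphocyte markers to 3.42 to 7.90 CPM over all sections, and red cell markers to 169 to 1688 CPM at 0 h and 316 to 1203 CPM after injury. Their part in the members' results was not tested.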

How the data were processed

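Visium libraries of 11 mouse liver sections were examined. Per the submitters' processing notes the authors ran Space Ranger 1.0.0 and Seurat 4.1.1 on mm10, and deposited for each section a matrix of UMI counts, not normalized, with 31053 genes and 4992 spot barcodes. The 10 genes and all gene lists were chosen with earlier results of these data known.

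Spots under the authors' tissue mask entered if they held 800 genes or more and no more than 20% of their UMIs were mitochondrial, as in the study's methods, whose manual removal of isolated spots was not repeated. Their counts were summed per section (31292663 to 67045372 UMIs), since spots are not replicates, and fitted over all 11 sections with edgeR 4.0.16 in R 4.3.3 (filterByExpr, TMM, quasi-likelihood, robust), two-sided with Benjamini-Hochberg adjustment over all genes tested. Zone sums were fitted with the section as a block, and a zone needed at least 20 spots in 2 sections of a time point. The hepatocyte-poor and portal spots (10% of each section) were chosen after seeing that few spots passed the planned hepatocyte cut. The hepatocyte score was the mean log level of 6 genes after thinning to 2000 UMIs. Single values per section were compared by exact permutation in SciPy 1.17.1. The steps were tested on simulated data.

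Alternatives were total-count scaling, DESeq2 1.42.0, no filter on low counts, only the groups compared, all spots under the mask, a replicate block, other thinning depths and zone cuts, and leaving out each section. All 10 genes are named in every comparison, with up to 4 genes per other list by mean CPM and any marker at 0. Gene positions are GENCODE vM21 on GRCm38 and promoters RefSeq on GRCm38.p6. Counting intervals cover counting error only. Images were not used here.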

Additional observations from a re-analysis of the deposited data

Results flagged for a closer look

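In 4 of the 20 groups of 4 sections examined, all at 48 h, 1 section lay far from the others by Dixon's test, which chance does in about 1 group in 20. In 48 h C, Cxcr2 was at 1.19 CPM where the next section was at 0.507, and Clec4d was at 21.9 CPM where the next was at 14.6. In 48 h D, Clec4d per S100a8 was 1.06 (next 0.566) and Il1b per S100a8 was 0.905 (next 0.157).

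The contrast between groups of spots changed with time for several members, by a test of the difference itself in edgeR with Benjamini-Hochberg adjustment. Of 72 such differences 15 passed the threshold with more than 3 UMIs in the smaller of the counts compared. The groups were cut within each section and differ in depth between times. Hepatocyte markers had a median log2 fold change of -0.34 in the hepatocyte-poor spots at 0 h and -0.89, -0.77 and -1.14 at 24, 36 and 48 h. Portal genes had 1.28 at 0 h and 1.66, 1.57 and 2.17 after injury in the portal contrast. A changed contrast is therefore not in itself a change of place. Another 5, all of Clec4d, passed on 0 or 1 UMI at 0 h and are not described. Between the hepatocyte-poor spots and the other spots, the log2 fold change of Il1b was higher than at 0 h by 1.5 (SE 0.29, adjusted p = 0.00191) at 24 h, 1.58 (adjusted p = 0.0199) at 36 h and 0.95 (adjusted p = 0.0114) at 48 h. At 48 h that of S100a8 exceeded 0 h by 0.92 (adjusted p = 0.0357), S100a9 by 0.71 (adjusted p = 0.0190) and Csf3r by 1.10 (adjusted p = 0.00452). Between 24 and 48 h this contrast increased by 0.45 for S100a9 (adjusted p = 0.0105) and by 0.70 for Clec4d (adjusted p = 0.00607).

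Between the portal-richest and portal-poorest spots, the log2 fold change of S100a8 differed from 0 h by -2.39 (adjusted p = 0.00173) at 24 h, -2.21 (adjusted p = 0.00338) at 36 h and -2.39 (adjusted p = 0.000120) at 48 h. For S100a9 the differences were -1.99 (adjusted p = 0.00372), -1.94 (adjusted p = 0.00585) and -2.52 (adjusted p = 3.22e-05), and for Csf3r at 48 h it was -1.75 (adjusted p = 0.0209).

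Transcripts of 5 members were higher outside the tissue mask in every injured section than in any 0 h section, in UMIs per 1000000 of the off-tissue total. The lowest injured section held 15.4 CPM of S100a8 (highest 0 h section 2.83, highest injured section 67.5), 15.4 CPM of S100a9 (2.45 and 58.8), 0.643 CPM of Retnlg (0.0956 and 3.32), 2.26 CPM of Csf3r (0.879 and 6.83) and 2.86 CPM of Clec4d (0.176 and 16.2). The source of these UMIs was not tested.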

How the results depend on the processing

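No called result changed direction under the alternatives run. Of 815 fold changes of members over sections, 768 kept their side of the threshold, 42 no longer passed it and 5 newly passed it. For the planned zones these were 77 and 3 newly past of 80, and for the hepatocyte-poor and portal spots 511, 13 and 4 of 528. Without 24 h A the granule gene share differed by -0.585 points (exact permutation p = 0.0333), in a range of -0.632 to 0.0708 over left-out sections.

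Leaving out each section in turn, the members changed were 6 to 7 at 24 h, 3 to 8 at 36 h (4 without 0 h 2, 3 without 36 h B) and 7 to 8 at 48 h against 0 h. They were 0 to 1 for 36 h against 24 h (0 without 0 h 2, 0 h 3, 24 h A, 36 h A, 36 h B or 48 h C) and 0 to 3 for 48 h against 24 h (0 without 24 h A, 48 h B or 48 h C, 2 without 36 h A, 36 h B or 48 h D, 3 without 24 h B). At 0 h they were 0 to 2 for the hepatocyte-poor spots (0 without 0 h 3 or 0 h 4, 2 without 48 h D) and 0 to 1 for the portal spots (1 without 48 h A or 48 h D). For 36 h against 24 h the count was 1, and 0 with no filter on low counts, with only the 2 groups, and in injured sections only with or without the replicate block. For 48 h against 24 h it was 1, 3 by DESeq2, 2 with no filter and 0 in injured sections only without a block. For 48 h against 36 h it was 0, and 1 by DESeq2.

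Section letters recur across the injured times. Deviations of same-letter sections from their time point's mean correlated with r of -0.287 to 0.367. With so few sections per time point these values are tied to each other. Whether same-letter sections share a slide or run cannot be told from them. With the letter as a replicate block, 48 h against 24 h again gave 1 call, Il1b (-2.36, adjusted p = 0.0250, edgeR) in place of Mmp8 (1.67, adjusted p = 0.0798). The 0 h sections share no letter with the others. Total counts in place of TMM put the median log2 fold change of all genes at 0.37, 0.49 and 0.54 at 24, 36 and 48 h against 0 h. The hepatocyte-low spots against far spots gave no value by the planned cut, since only 48 h C among the injured sections had at least 20 such spots, and spots beside them gave none at 24 h and 36 h. At 48 h, 7 members were called with the 5th percentile cut and 8 with Cyp2e1 added. The hepatocyte-poor and portal spots, the fit to injured sections only and the autocorrelation of single genes were chosen after seeing the data. The 0 h sections held 1 to 3 UMIs of Cxcr2 and 0 to 2 of Mmp8, which limits their fold changes.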
